A study of Mus musculus with 30 samples.

Results

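The antioxidant response genes described here are 10 genes widely given as targets of the transcription factor NRF2 or as partners of those targets, *Hmox1*, *Nqo1*, *Gclc*, *Gclm*, *Srxn1*, *Txnrd1*, *Slc7a11*, *Prdx1*, *Gsr* and *Sod2*. They were found by symbol in both deposited count tables, 10 of 13353 genes in whole bone marrow (BM) cells and 10 of 17059 genes in adipose tissue macrophages (ATMs), which are F4/80+ cells sorted from visceral fat. They were chosen by name, with earlier results of these data known.

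Bulk RNA-Seq was done in 30 libraries, 3 for each of 5 groups in each tissue. According to the submitters' protocols, WT C57BL/6 mice and leptin-deficient *Ob/Ob* mice on a C57BL/6J background, males and females of about 12 to 14 weeks, were lethally irradiated with 700 and 400 cGy. All recipients then received a mixture of equal numbers of CD45.2+ BM cells of the genotype *Shp2*E76K/+;*LysM-Cre*+ and CD45.1+ Boy/J competitor BM cells. E76K makes the phosphatase SHP2 overactive, and *LysM-Cre* drives the allele in myeloid cells, so each library can hold mutant, competitor and remaining recipient cells. From week 8 the *Ob/Ob* recipients were treated for 30 days with vehicle (Vehicle), with beinaglutide, an agonist of the glucagon-like peptide 1 receptor, at 3 mg/kg s.c. (GLP-1R agonist), with an anti–IL-17A antibody at 200 μg per mouse i.p. 3 times a week (anti–IL-17A), or with both agents (Combo). WT recipients carry no label of treatment, week or day. Vehicle vs WT thus holds the difference in recipient and, possibly, those of the vehicle and of the time of harvest. Transcripts linked to sex also differed between these groups, as given below. The labels give no donor for single libraries, and a legend of the study names WT donor cells for the ATM comparison. Whether the ATM WT libraries differ in donor as well could not be told from the labels. The protocol gives 3 mice per group for the vehicle and treated groups. The labels do not tell whether the BM libraries of a group came from separate mice or from 1 pool. The p-values thus measure the spread between these libraries, which need not be that between mice.

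NRF2 is held at low levels by KEAP1, which marks it for degradation. When oxidants or electrophiles modify KEAP1, NRF2 enters the nucleus, pairs with small MAF proteins and binds antioxidant response elements, from which BACH1 is displaced. Its targets make and recycle glutathione, keep thioredoxin and peroxiredoxins reduced and remove heme and quinones. In myeloid cells these genes temper the oxidative burst and the handling of heme and iron. Other factors also act on single members. *Hmox1* answers to heme through BACH1, *Slc7a11* to ATF4 during amino acid shortage, and *Sod2* mainly to NF-κB, so that a change of 1 gene does not stand for the activity of NRF2.

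BM libraries held 31086184 to 39925495 counts and ATM libraries 24876074 to 45300263. The smallest count of any of the 10 genes in a library was 123 in BM and 348 in ATMs. The biological coefficient of variation was 3.51% in BM and 32.5% in ATMs, so smaller differences passed the test in BM. BM WT replicate 1 stood apart from the other BM WT replicates, with a chi-square per degree of freedom of 34.8 and 26.6 against 2.02 to 4.21 for the other replicate pairs in BM. Cell type markers also differed between the groups. In ATMs the summed neutrophil markers (10 of 11 measured) were 243 to 264 CPM (counts scaled to the effective library size, the library total times its TMM factor) in WT and 21516 to 22771 CPM in Vehicle, while *Adgre1*, which encodes F4/80, was at 192 to 229.6 CPM in WT and 30.2 to 52.4 CPM in Vehicle. The Vehicle ATM libraries thus held less transcript of the antigen used for their sort than the WT libraries. *Xist*, which is transcribed in female cells, was at 0.25 to 0.79 CPM in ATMs of WT, 30.1 to 46.2 in Vehicle, 0 to 1.22 with anti–IL-17A and 31.4 to 38.1 in Combo, and had no count in the 3 libraries with the GLP-1R agonist. In BM it was at 0 to 0.075 CPM in WT, 182 to 193 in Vehicle, 0 to 0.16 with the GLP-1R agonist, 2.54 to 3.26 with anti–IL-17A and 101 to 105 in Combo. The *Xist* ranges of WT and of the treated groups thus lay below that of Vehicle, except in ATMs of Combo, where they overlapped, and its part in the differences of the 10 genes was not tested. The Y-linked *Ddx3y* was at 42.8 to 48.3 CPM in BM of WT, 19.9 to 21.3 in Vehicle and 4.22 to 5.09 in Combo. It was at 51.7 to 57.9 with the GLP-1R agonist and 41.9 to 42.7 with anti–IL-17A. Each of the 3 BM Vehicle libraries thus held both transcripts at close levels. Whether BM libraries of a group shared mice was not tested. In whole tissues and sorted fractions of mixed cells, fewer cells of a type and less RNA per cell cannot be told apart.

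RefSeq promoter windows on GRCm38.p6, 250 bases before to 50 after a start, were at hand for 7 of the 10 genes, *Nqo1*, *Gclm*, *Srxn1*, *Txnrd1*, *Slc7a11*, *Prdx1* and *Sod2*. Both strands were searched for the core of the antioxidant response element (TGACNNNGC), the AP-1 site (TGANTCA), which overlaps that core in many elements, and the composite site for ATF4 and C/EBP (TGATGNAA). The core was found in *Gclm*, *Prdx1*, *Srxn1* and *Txnrd1* and in 12.4% of all 32851 windows. An AP-1 site was found in *Prdx1* and *Srxn1* and in 7.81% of all windows, and the ATF4 composite in *Slc7a11* alone among the members and in 3.97% of all windows. The windows of *Nqo1* and *Sod2* held none of these letters. A match is a run of letters and says nothing of binding in these cells.

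The stretches that hold these matches are shown because their letters set the members apart, an antioxidant core with or without an AP-1 site or an ATF4 composite alone. They run 5′ to 3′ on the strand of the gene, with the matches in capitals. *Gclm* is at chr3:122245307-122245546 on the plus strand, *Txnrd1* at chr10:82859009-82859178 on the plus strand, *Prdx1* at chr4:116685349-116685543 on the plus strand, *Srxn1* at chr2:152105274-152105513 on the plus strand and *Slc7a11* at chr3:50443624-50443863 on the minus strand. The antioxidant cores lie on the opposite strand and so appear reversed and complemented. In *Prdx1* the second run of capitals is an antioxidant core that contains an AP-1 site. The core of *Srxn1* lies at bases 28 to 36 after its start, outside the stretch shown.
Gclm: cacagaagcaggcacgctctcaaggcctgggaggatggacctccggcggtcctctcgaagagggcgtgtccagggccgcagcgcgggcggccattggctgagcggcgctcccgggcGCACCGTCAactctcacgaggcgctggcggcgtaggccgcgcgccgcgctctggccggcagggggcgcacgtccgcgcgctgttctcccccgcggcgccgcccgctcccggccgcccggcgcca
Txnrd1: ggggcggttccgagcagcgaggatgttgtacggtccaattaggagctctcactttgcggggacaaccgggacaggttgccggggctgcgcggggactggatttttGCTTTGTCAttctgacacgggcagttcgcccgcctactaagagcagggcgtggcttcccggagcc
Prdx1: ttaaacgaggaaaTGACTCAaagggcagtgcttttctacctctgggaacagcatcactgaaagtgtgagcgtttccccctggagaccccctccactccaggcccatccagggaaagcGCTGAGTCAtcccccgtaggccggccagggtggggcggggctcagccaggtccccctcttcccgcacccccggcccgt
Srxn1: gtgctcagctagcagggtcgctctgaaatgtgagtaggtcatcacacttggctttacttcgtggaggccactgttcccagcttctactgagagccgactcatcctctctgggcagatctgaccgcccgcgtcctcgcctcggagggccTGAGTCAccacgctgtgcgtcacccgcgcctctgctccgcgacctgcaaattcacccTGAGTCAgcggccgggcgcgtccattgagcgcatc
Slc7a11: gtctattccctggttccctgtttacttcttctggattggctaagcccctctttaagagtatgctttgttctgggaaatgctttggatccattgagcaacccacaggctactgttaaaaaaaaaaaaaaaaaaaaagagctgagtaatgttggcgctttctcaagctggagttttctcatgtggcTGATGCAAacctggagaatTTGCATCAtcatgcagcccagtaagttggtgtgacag

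In BM, the comparison of Vehicle with WT asked how the marrow of *Ob/Ob* recipients differed from that of WT recipients. *Sod2* and *Hmox1* rose and *Nqo1* fell past both thresholds of the study, a Benjamini-Hochberg false discovery rate (FDR) below 0.05 and an absolute log2 fold change above 1, at which a gene is called here. These were 3 of 10 genes, where 19.5% of all genes were called. All 10 passed the FDR alone, where 76.6% of all genes passed, and all of them but *Nqo1* and *Slc7a11* were higher in Vehicle. Replicates of the groups did not overlap for any of the 10, as for 75.8% of all genes, so neither count sets the members apart from the rest of the transcriptome.

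**Figure D1:**
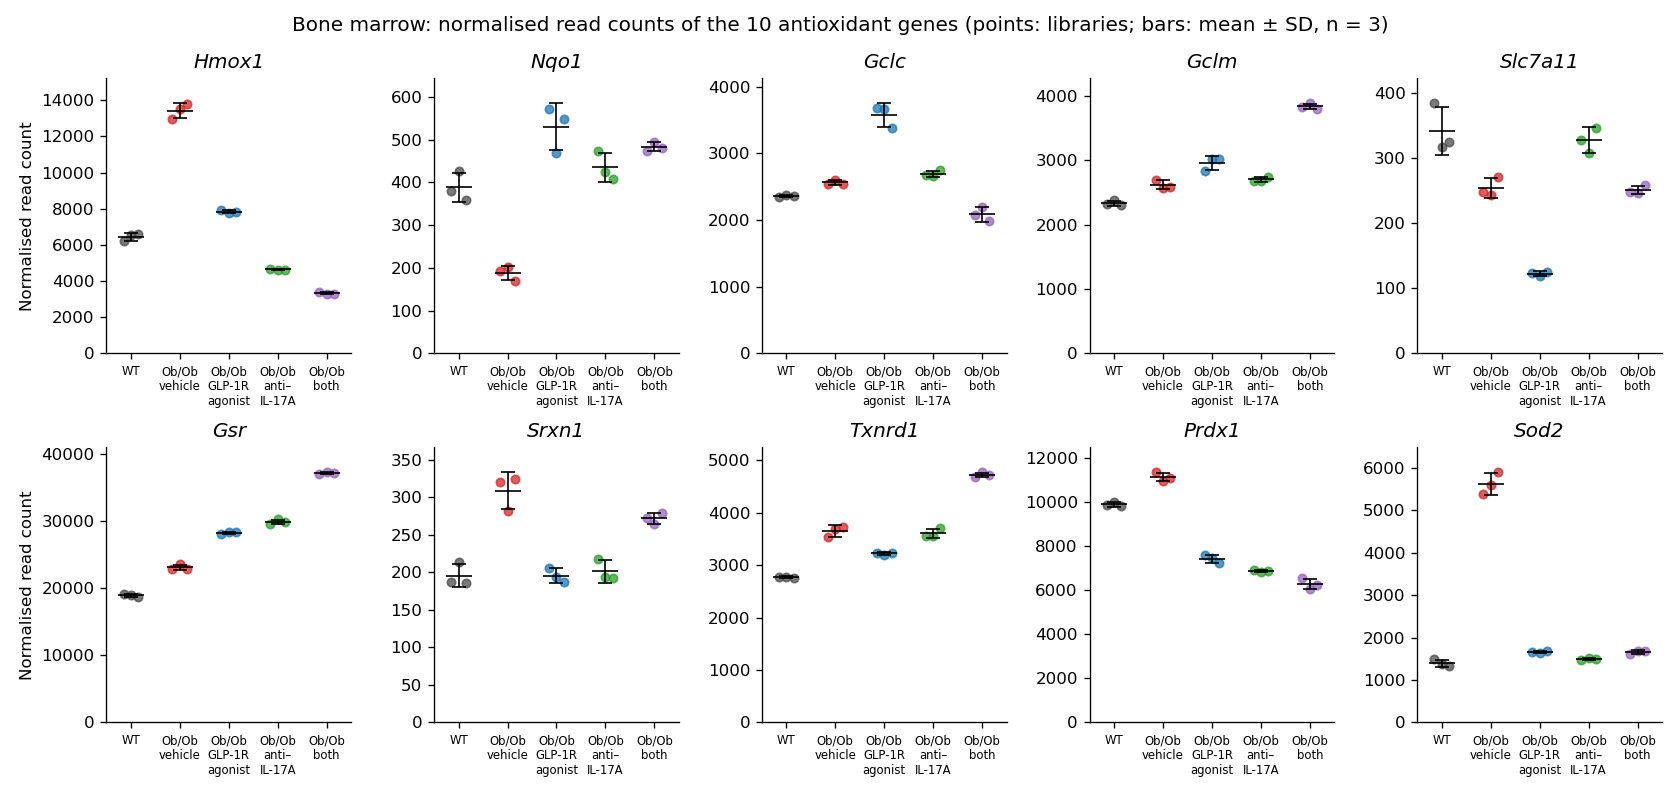
Normalised read counts of the 10 genes in BM (y axis, from 0) in the 5 groups (x axis), with 1 point per library and the mean ± SD of 3 libraries. *Sod2* and *Hmox1* are highest in Vehicle and *Nqo1* lowest, while *Gclm*, *Gsr* and *Txnrd1* are highest in Combo.

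*Hmox1* (chr8:75093621-75100589, GRCm38) encodes heme oxygenase 1, which breaks heme down to biliverdin, iron and carbon monoxide. Its normalised read counts, scaled to a common library size, were 6205, 6519.7 and 6576 in BM of WT and 12960.4, 13486 and 13772 in Vehicle, so every Vehicle library was above every WT library. The log2 fold change was 1.06 ± 0.027 (SE), adjusted p = 5.63e-31. *Sod2* (chr17:13006846-13040063) encodes the manganese superoxide dismutase of mitochondria, and its normalised counts were 1491, 1366 and 1324 in WT and 5375, 5585 and 5887 in Vehicle. This was the largest difference among the 10 genes in BM, a log2 fold change of 2.01 ± 0.041 (SE), adjusted p = 2.06e-34, with no overlap. *Nqo1* (chr8:107388225-107403206) encodes a quinone reductase that is often read as a marker of NRF2 activity. It moved the other way, from 379, 427 and 359.6 in WT to 194, 202 and 170.3 in Vehicle. That log2 fold change was -1.04 ± 0.10 (SE), adjusted p = 4.47e-12, and it came to -0.96 without WT replicate 2 and to -0.96 without Vehicle replicate 3, short of the fold limit though not of the FDR. Without WT replicate 1, which stood apart, the log2 fold changes were 1.03 for *Hmox1*, 2.06 for *Sod2* and -1.06 for *Nqo1*, and the same number of members was called.

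The genes of glutathione supply changed less. *Slc7a11* (chr3:49892526-50443614) encodes the cystine importer that feeds glutathione synthesis. It was the least abundant member in BM per length, at 0.704 ± 0.0758 (SD, n = 3) CPM per kilobase of exon in WT, and its log2 fold change in Vehicle vs WT was -0.43 ± 0.10 (SE), adjusted p = 1.49e-04. *Gclc* (chr9:77754535-77794485) and *Gclm* (chr3:122245557-122270732), the catalytic and modifier subunits of the enzyme that starts the synthesis, rose by 0.12 and 0.17 on the log2 scale. *Gsr* (chr8:33652523-33698163), which returns oxidized glutathione to its reduced form, rose by 0.28 and was the most abundant member per length in every BM group, from 198 ± 2.35 in WT to 388 ± 1.48 in Combo CPM per kilobase of exon. In the thioredoxin system, *Srxn1* (chr2:152105516-152111376), which repairs overoxidized peroxiredoxins, rose by 0.66, *Txnrd1* (chr10:82833951-82897712), the cytosolic thioredoxin reductase, by 0.40, and *Prdx1* (chr4:116685544-116700822), an abundant cytosolic peroxiredoxin, by 0.17. None of these 7 genes reached the fold limit.

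Each treated group was then set against Vehicle, which the 3 comparisons share. *Sod2* fell and *Nqo1* rose past both thresholds in BM of all 3 treated groups. With the GLP-1R agonist, 3 of 10 genes were called (*Nqo1*, *Slc7a11*, *Sod2*), where 16.7% of all genes were. With anti–IL-17A the 3 called genes were *Hmox1*, *Nqo1* and *Sod2*, with 16.1% of all genes called. The same 3 symbols were called in Combo, with 17.7% of all genes called. By the FDR alone, 10, 7 and 8 of the 10 genes passed in the 3 comparisons, against 72.8%, 73% and 73.8% of all genes.

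*Sod2* counts in BM were 1663, 1639.9 and 1676 with the GLP-1R agonist, 1472, 1508 and 1497 with anti–IL-17A and 1614, 1692 and 1691 in Combo. All 9 treated libraries were below the 3 Vehicle libraries and within or somewhat above the WT range of 1324 to 1491. The log2 fold changes against Vehicle were -1.76 ± 0.041 (adjusted p = 1.05e-32), -1.91 ± 0.041 (adjusted p = 8.38e-34) and -1.75 ± 0.041 (adjusted p = 1.69e-32) in that order. *Nqo1* counts were 573, 468 and 549 with the GLP-1R agonist, 474, 423 and 409 with anti–IL-17A and 474, 495 and 481 in Combo. Every treated library was above every Vehicle library. The *Nqo1* log2 fold changes were 1.48 ± 0.10 (adjusted p = 4.38e-17), 1.20 ± 0.10 (adjusted p = 5.31e-14) and 1.35 ± 0.10 (adjusted p = 1.24e-15).

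*Hmox1*, like *Prdx1* and *Gsr*, differed past the FDR between all neighbours in the order of the 5 BM groups. Its counts were 7939, 7765 and 7819 with the GLP-1R agonist, 4673, 4633 and 4637 with anti–IL-17A and 3403, 3308 and 3286 in Combo. The order Vehicle, GLP-1R agonist, WT, anti–IL-17A, Combo held with no overlap between neighbours, and the highest mean was 4.02 times the lowest. Against Vehicle, *Hmox1* fell by 0.77 on the log2 scale with the GLP-1R agonist, by 1.53 with anti–IL-17A and by 2.01 in Combo, with SEs of 0.027, 0.028 and 0.029. Combo was also below the GLP-1R agonist past both thresholds (-1.23 ± 0.029 (SE), adjusted p = 3.49e-32), a comparison in which 13.2% of all genes were called, and below anti–IL-17A past the FDR alone (-0.48 ± 0.029, adjusted p = 1.73e-17).

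*Slc7a11* was lowest in BM with the GLP-1R agonist, at 124, 118 and 126 normalised counts against 248, 243 and 271 in Vehicle, 328, 307 and 346 with anti–IL-17A and 248, 246 and 258 in Combo. No library of the GLP-1R agonist group reached the lowest of the other groups. It was called lower than in Vehicle (-1.05 ± 0.11 (SE), adjusted p = 6.97e-11), than in WT (-1.48 ± 0.11, adjusted p = 7.67e-16, with 14.7% of all genes called) and than with anti–IL-17A (-1.42 ± 0.11, adjusted p = 7.19e-15, with 5.83% called), and Combo was called higher than the GLP-1R agonist (1.03 ± 0.11, adjusted p = 9.39e-11). In Combo against Vehicle the log2 difference was -0.019 ± 0.10, adjusted p = 0.876.

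Of the other glutathione genes in BM, *Gsr* rose past the FDR in all 3 treated groups, with log2 fold changes of 0.29, 0.37 and 0.68, and was highest in Combo at 37180.3 ± 142 (SD, n = 3) against 23142 ± 406 in Vehicle. *Gclm* was likewise highest in Combo, at 3837 ± 43.0 against 2616 ± 70.7. The 2 subunits parted there, since *Gclc* fell by 0.30 in Combo while *Gclm* rose by 0.55. With the GLP-1R agonist *Gclc* rose by 0.48 and *Gclm* by 0.18. Among the thioredoxin genes, *Prdx1* fell in all 3 treated groups, by 0.58, 0.70 and 0.83. *Srxn1* fell by 0.66 with the GLP-1R agonist and by 0.62 with anti–IL-17A, and its difference in Combo was -0.18 ± 0.10, adjusted p = 0.0967. *Txnrd1* fell by 0.18 with the GLP-1R agonist and rose by 0.37 in Combo.

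Between BM of Combo and of WT none of the 10 genes was called in edgeR or in DESeq2, where 14.3% of all genes were called in edgeR, but all 10 passed the FDR, as did 73.3% of all genes. The largest differences were higher *Gsr* (0.97 ± 0.022 (SE), adjusted p = 7.98e-33) and lower *Hmox1* (-0.95 ± 0.029, adjusted p = 3.15e-28) in Combo. *Gclm* and *Txnrd1* were higher by 0.72 and 0.77, *Srxn1* by 0.47, *Nqo1* by 0.31 and *Sod2* by 0.25, while *Prdx1*, *Slc7a11* and *Gclc* were at -0.66, -0.45 and -0.18. Without WT replicate 1 *Gsr* was at 0.98 and *Hmox1* at -0.97, and still none was called. The neighbours in the order of *Nqo1* (GLP-1R agonist, Combo, anti–IL-17A, WT) had adjusted p of 0.16, 0.14 and 0.10, and Vehicle stood below them. Groups of these 4 that were not neighbours differed past the FDR, under the fold limit. The GLP-1R agonist was above WT (0.45 ± 0.086 (SE), adjusted p = 1.43e-05) and anti–IL-17A (0.28 ± 0.084, adjusted p = 0.00359). Combo was above WT (0.31 ± 0.087, adjusted p = 0.00151). Between Combo and anti–IL-17A, 0 of 10 members were called by edgeR in either tissue, where 5.67% of all genes were called in BM and 14.2% in ATMs, although 9 of 10 passed the FDR in each, beside 52.5% and 28.6% of all genes. Between anti–IL-17A and WT in BM, edgeR called 0 of 10 members and 6.32% of all genes, with 6 of 10 members past the FDR, beside 66.3% of all genes.

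Whether both agents together did what their separate changes add up to was tested as the gap between Combo and additive effects of the agents on the log2 scale, called a departure here. In BM this departure was called for 3 of 10 genes, where 21.1% of all genes were, and 9 of 10 passed the FDR alone, as did 68.6% of all genes. It was 1.92 ± 0.060 (adjusted p = 6.60e-28) for *Sod2*, 1.09 ± 0.15 (adjusted p = 1.61e-08) for *Srxn1* and -1.33 ± 0.13 (adjusted p = 8.50e-12) for *Nqo1*. For *Sod2* and *Nqo1* the level with each agent alone lay near that in Combo, so that the sum of both changes went beyond it. *Gsr* was the only member whose departure did not pass the FDR (0.021 ± 0.030, adjusted p = 0.548), while that of *Hmox1* was 0.29 ± 0.040, adjusted p = 2.28e-08. The departure sets Vehicle and Combo against the single agents. Mean *Xist* was 188 and 104 CPM in Vehicle and Combo, and 0.062 and 2.83 with the GLP-1R agonist and anti–IL-17A. Summed neutrophil markers averaged 121167 and 137011 CPM in Vehicle and Combo, and 80697 and 96906 with these agents. The part of these differences in the departure was not tested.

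Cell type markers moved between the BM groups too. The summed neutrophil markers were 106389 to 113804 CPM in WT, 120290.0 to 122111 in Vehicle, 80437 to 81114 with the GLP-1R agonist, 96374 to 97699.7 with anti–IL-17A and 136243 to 137702 in Combo. The higher sum in Vehicle than in WT went with 2 markers higher past the FDR, *Ngp* (0.87) and *S100a9* (0.16), while 7 of the 10 measured were lower past it, 1 of them past both thresholds, and the median log2 fold change was -0.38. Monocyte and macrophage markers (10 of 10 measured) summed to 13206 to 13483 CPM in WT and 4267 to 4307 CPM in Vehicle, with 3 called higher and 2 lower in Vehicle. B cell markers (9 of 9) summed to 1294 to 1317 CPM in WT and 392 to 412 CPM in Vehicle, with 8 called lower. The sum of 5 erythroid markers, of 10 listed, was 995 to 1018 CPM in WT, 682 to 692 in Vehicle and 891 to 909 in Combo. It was 2121 to 2172 with the GLP-1R agonist and 1366 to 1405 with anti–IL-17A. Adipocyte markers (6 of 9) summed to 78.6 to 84.5 CPM in WT and 42.7 to 49.99 in Vehicle. The part of these shifts in the values of the 10 genes was not tested.

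In ATMs the members formed another pattern. *Slc7a11*, *Gsr*, *Sod2* and *Hmox1* rose past both thresholds in Vehicle vs WT, 4 of 10 genes, where 35.4% of all genes were called, and *Nqo1* did not pass. Past the FDR alone, *Srxn1* and *Prdx1* were higher and *Txnrd1* was lower, which made 7 of 10 against 56.9% of all genes, and 7 genes had groups without overlap against 62.9%. The median log2 fold change was 0.70 over the 10 genes and -0.21 over all genes.

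**Figure D2:**
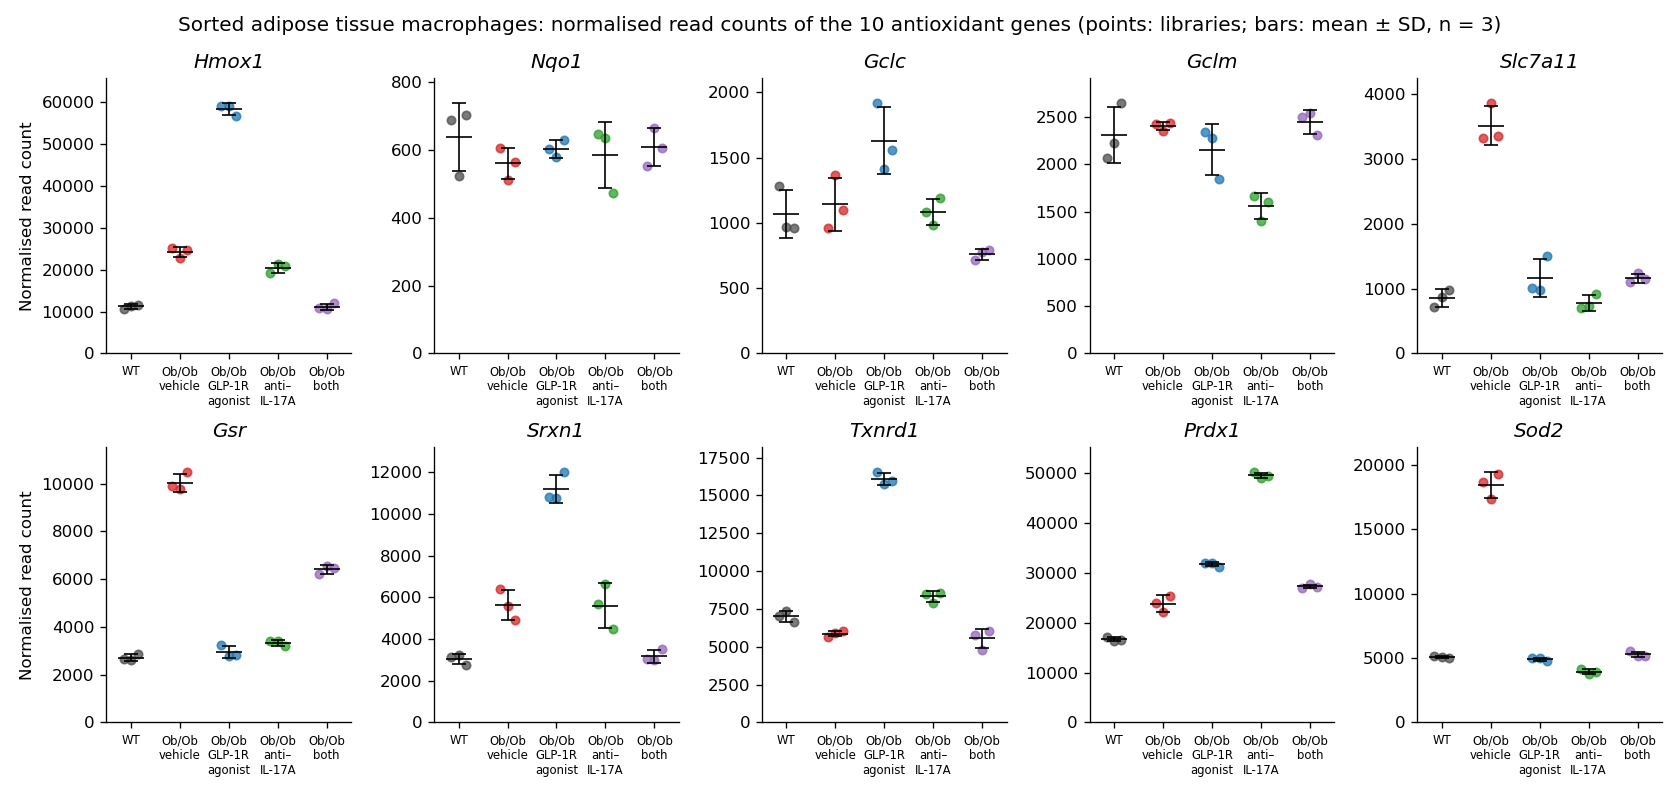
Normalised read counts of the 10 genes in ATMs (y axis, from 0) in the 5 groups (x axis), with 1 point per library and the mean ± SD of 3 libraries. *Slc7a11*, *Gsr* and *Sod2* are highest in Vehicle, *Hmox1*, *Srxn1* and *Txnrd1* highest with the GLP-1R agonist and *Prdx1* highest with anti–IL-17A.

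*Slc7a11* had 711, 865 and 983 normalised counts in ATMs of WT and 3326, 3856 and 3356 in Vehicle. The groups did not overlap, and the log2 fold change was 2.04 ± 0.17 (SE), adjusted p = 5.66e-08. *Gsr* had 2649, 2595 and 2864 in WT and 9884, 9760.5 and 10465 in Vehicle, a log2 fold change of 1.89 ± 0.067, adjusted p = 1.12e-12. *Sod2* had 5132, 5086 and 4983 in WT and 18709.9, 17372 and 19275 in Vehicle, a log2 fold change of 1.86 ± 0.053, adjusted p = 7.16e-14. Every Vehicle library was far above every WT library in these 3 genes, with spreads between replicates that were small beside the difference.

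*Hmox1* went from 10523, 11423 and 11665 in WT to 25151, 22768 and 24677 in Vehicle (1.11 ± 0.057 (SE), adjusted p = 1.43e-10), and was the most abundant member per length in both groups, at 193 ± 10.4 and 416 ± 21.7 CPM per kilobase of exon. *Srxn1* rose by 0.89 and *Prdx1* by 0.52, and *Txnrd1* fell by 0.26. *Nqo1* was at 686, 521 and 701 in WT and 604, 511 and 563 in Vehicle, which overlap. The differences of *Gclc* and *Gclm* were 0.094 ± 0.16 (adjusted p = 0.635) and 0.057 ± 0.11 (adjusted p = 0.679), and their groups overlapped as well.

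Against Vehicle, *Slc7a11* and *Sod2* fell past both thresholds in ATMs of all 3 treated groups. With the GLP-1R agonist 5 of 10 genes were called, *Hmox1* and *Txnrd1* higher and *Slc7a11*, *Gsr* and *Sod2* lower, where 31.8% of all genes were called. With anti–IL-17A 4 were called, *Prdx1* higher and *Slc7a11*, *Gsr* and *Sod2* lower, where 35.5% of all genes were. In Combo 3 were called, *Hmox1*, *Slc7a11* and *Sod2*, each lower, where 26.4% of all genes were. By the FDR alone 8, 7 and 7 of the 10 passed, against 53.8%, 58.1% and 48.7% of all genes.

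*Slc7a11* counts in ATMs were 1015, 971 and 1498 with the GLP-1R agonist, 695, 731 and 916 with anti–IL-17A and 1095, 1237 and 1143 in Combo. Every treated library was below every Vehicle library, with log2 fold changes of -1.59 ± 0.17 (adjusted p = 8.91e-07), -2.17 ± 0.17 (adjusted p = 2.70e-08) and -1.60 ± 0.17 (adjusted p = 9.55e-07). *Sod2* counts were 4974, 5008 and 4790.3 with the GLP-1R agonist, 4152, 3765 and 3939 with anti–IL-17A and 5535, 5176 and 5184 in Combo, again all below Vehicle. The *Sod2* log2 fold changes were -1.91 ± 0.054 (adjusted p = 6.49e-14), -2.22 ± 0.054 (adjusted p = 9.39e-15) and -1.80 ± 0.053 (adjusted p = 1.52e-13), and Combo, WT and the GLP-1R agonist were neighbours that were not told apart (adjusted p of 0.35 and 0.58).

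*Gsr* did not follow in Combo to the same degree. Its counts were 3230.1, 2769 and 2838 with the GLP-1R agonist, 3426, 3392 and 3199 with anti–IL-17A and 6204, 6551 and 6466 in Combo, which lay between both single agents and Vehicle with no overlap. The log2 fold changes against Vehicle were -1.77 ± 0.067 (adjusted p = 2.84e-12), -1.59 ± 0.066 (adjusted p = 8.98e-12) and -0.65 ± 0.065 (adjusted p = 5.14e-07). Against WT, *Gsr* was the only member called in Combo (1.25 ± 0.066, adjusted p = 4.09e-10), where 21.6% of all genes were called. By the FDR alone 5 of 10 members passed there, and 41.1% of all genes.

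*Hmox1* reached its highest level in ATMs with the GLP-1R agonist, at 59107, 58920.5 and 56540.0 normalised counts, against 19083, 21347 and 20929 with anti–IL-17A and 10889, 10563 and 11943 in Combo. Per length this was 1001 ± 24.6 CPM per kilobase of exon, the highest level of any member in any group. With the GLP-1R agonist *Hmox1* was higher than in Vehicle (1.27 ± 0.057 (SE), adjusted p = 3.21e-11), with anti–IL-17A it was lower past the FDR alone (-0.24 ± 0.057, adjusted p = 0.00182), and in Combo it was lower past both thresholds (-1.12 ± 0.057, adjusted p = 1.59e-10) and not told apart from WT (-0.0094 ± 0.057, adjusted p = 0.918 for Combo vs WT). In BM *Hmox1* fell with the same agonist, and the difference between the tissues was not tested for this comparison.

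The thioredoxin genes *Srxn1* and *Txnrd1* were also highest with the GLP-1R agonist. *Srxn1* had 10810.0, 10790.5 and 11998 counts there, 6383, 5596 and 4927 in Vehicle, 5688, 6632 and 4503 with anti–IL-17A and 3035, 2977 and 3526 in Combo. The GLP-1R agonist libraries did not overlap with any other group, and the log2 fold change against Vehicle was 0.99 ± 0.12 (SE), adjusted p = 6.44e-06, just under the fold limit. It was past the limit at 1.09 without Vehicle replicate 1 and at 1.02 without GLP-1R agonist replicate 1 or replicate 2. *Txnrd1* had 16524, 15749 and 15951 counts with the GLP-1R agonist and 5668, 5919 and 6029 in Vehicle (1.45 ± 0.073, adjusted p = 1.14e-10), and rose by 0.50 with anti–IL-17A. *Prdx1* was instead highest with anti–IL-17A, at 50148, 49028 and 49466 against 23981, 22175 and 25397 in Vehicle (1.05 ± 0.041, adjusted p = 3.69e-12), and rose past the FDR in the other two treated groups, by 0.41 and 0.19.

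*Nqo1* did not pass the FDR in any comparison in ATMs. Its group means lay between 559 ± 46.6 in Vehicle and 636 ± 99.9 in WT (SD, n = 3), and the highest mean was 1.14 times the lowest. With the SE of 0.17 on the log2 scale, a small change could not have been seen. *Gclc* rose by 0.51 with the GLP-1R agonist and fell by 0.59 in Combo, and *Gclm* fell by 0.63 with anti–IL-17A alone, while its differences were -0.16 ± 0.11, adjusted p = 0.232 with the GLP-1R agonist and 0.025 ± 0.11, adjusted p = 0.907 in Combo.

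**Figure D3:**
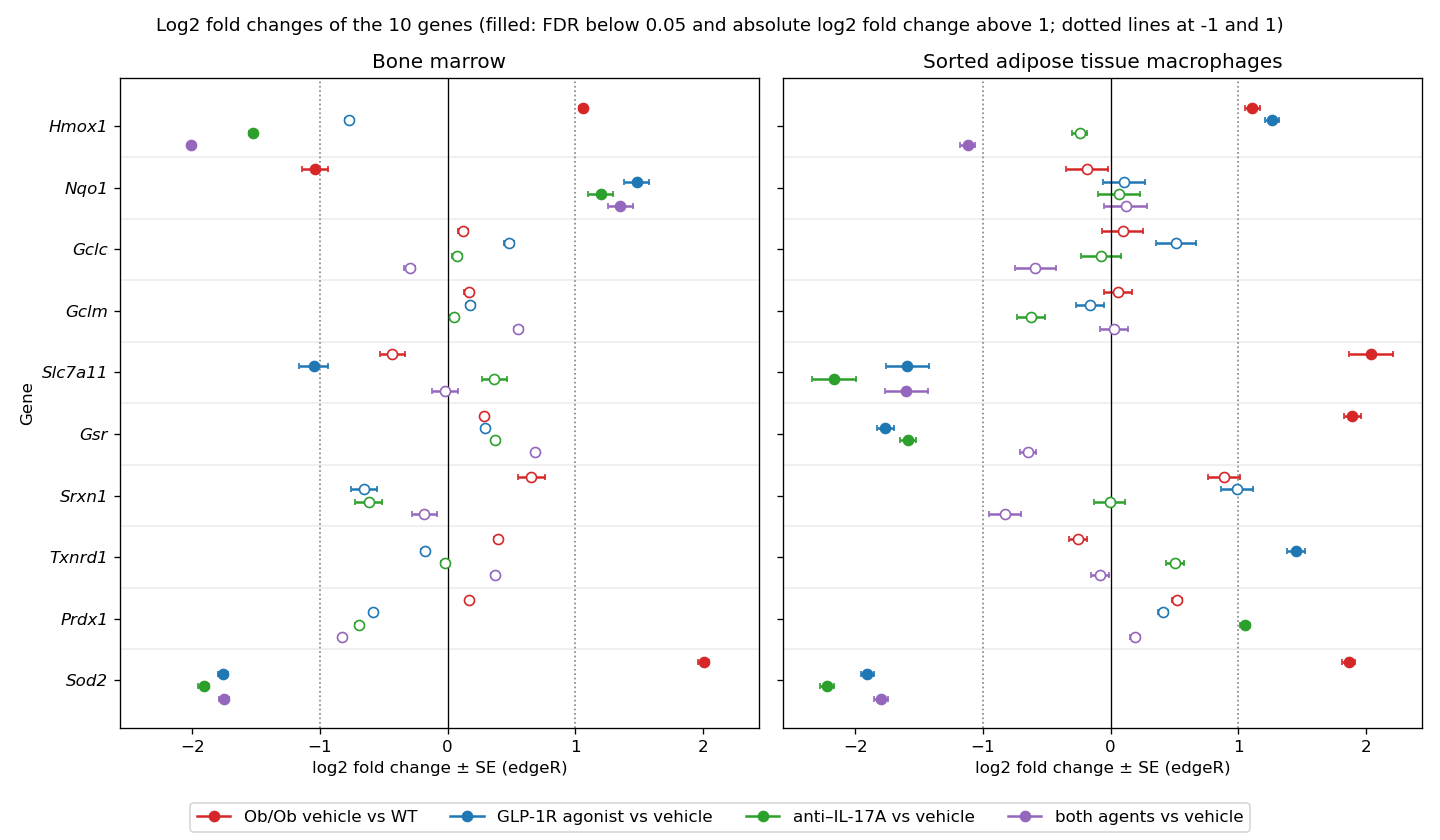
Log2 fold change ± SE from edgeR (x axis) of the 10 genes (y axis) in BM and ATMs for Vehicle vs WT and for each treated group vs Vehicle, with filled points for genes past both thresholds. *Sod2* is higher in Vehicle than in WT and lower in each treated group in both tissues, while *Gsr*, *Slc7a11* and *Nqo1* are placed differently in the 2 tissues.

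Several members were above WT with the single agents in ATMs. With the GLP-1R agonist, *Hmox1* (2.38 ± 0.059 (SE), adjusted p = 6.35e-14), *Srxn1* (1.88 ± 0.13, adjusted p = 1.20e-08) and *Txnrd1* (1.20 ± 0.072, adjusted p = 2.81e-09) were called higher than in WT, 3 of 10 genes, where 15.1% of all genes were called. With anti–IL-17A only *Prdx1* was called (1.57 ± 0.041, adjusted p = 8.55e-14), where 18.7% of all genes were. *Hmox1* (0.87 ± 0.057, adjusted p = 6.38e-09), *Srxn1* (0.88 ± 0.13, adjusted p = 3.93e-05) and *Txnrd1* (0.25 ± 0.071, adjusted p = 0.0122) also passed the FDR against WT with anti–IL-17A, under the fold limit, as did *Prdx1* with the GLP-1R agonist (0.93 ± 0.041, adjusted p = 5.15e-11). Without anti–IL-17A replicate 3, *Srxn1* was past the limit against WT at 1.02. Between the agents, *Hmox1* was called higher with the GLP-1R agonist (1.51 ± 0.058, adjusted p = 3.18e-11), 1 of 10 genes where 8.1% of all genes were called. *Srxn1* lay at the limit (0.998 ± 0.12, adjusted p = 1.66e-05) and was past it at 1.01 with the replicate number as a block, at 1.02 and 1.02 without GLP-1R agonist replicate 1 and 2, and at 1.01 and 1.13 without anti–IL-17A replicate 1 and 2. Combo was called lower than the GLP-1R agonist for *Hmox1*, *Srxn1*, *Txnrd1* and *Gclc*, with log2 differences of -2.39, -1.82, -1.53 and -1.10, and higher for *Gsr* at 1.12, 5 of 10 genes where 18.7% of all genes were called. *Gclc* was under the limit, at -0.97, without GLP-1R agonist replicate 1.

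In ATMs the departure of Combo from additive effects was called for 8 of 10 genes, where 35.9% of all genes were, and 9 of 10 passed the FDR alone, against 50.5% of all genes. It was positive for *Gsr* (2.71 ± 0.093 (SE), adjusted p = 1.05e-12), *Sod2* (2.33 ± 0.074, adjusted p = 3.75e-13) and *Slc7a11* (2.16 ± 0.24, adjusted p = 1.42e-06), genes that fell with each single agent. It was negative for *Hmox1* (-2.14 ± 0.081, adjusted p = 3.85e-12), *Txnrd1* (-2.04 ± 0.10, adjusted p = 1.24e-10), *Srxn1* (-1.81), *Prdx1* (-1.27) and *Gclc* (-1.03). All of these had risen past the FDR with the GLP-1R agonist, *Hmox1* and *Txnrd1* past both thresholds. In Combo *Hmox1*, *Srxn1* (-0.83) and *Gclc* (-0.59) were below Vehicle past the FDR. *Txnrd1* did not pass there, and *Prdx1* (0.19) was above Vehicle. The departure of *Gclc* dropped under the fold limit, to -0.91 and -0.99 without Vehicle replicate 1 and 3, -0.90 without GLP-1R agonist replicate 1, -0.96 without anti–IL-17A replicate 3 and -0.98 without Combo replicate 1. The departure of *Gclm* passed the FDR alone (0.81 ± 0.15, adjusted p = 3.98e-04), and that of *Nqo1* did not pass (-0.054 ± 0.23, adjusted p = 0.875). As in BM, sample make-up lay along this contrast. Mean *Xist* was 37.7 and 34.0 CPM in Vehicle and Combo, and 0 and 0.41 with the GLP-1R agonist and anti–IL-17A. Summed neutrophil markers averaged 22231 and 12892.5 CPM in Vehicle and Combo, and 184 and 405 with these agents. The part of these differences in the departure was not tested.

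Cell type markers differed between the ATM groups too. In ATMs the summed neutrophil markers were 243 to 264 CPM in WT, 21516 to 22771 in Vehicle, 183 to 185 with the GLP-1R agonist, 397 to 412 with anti–IL-17A and 12743 to 13105 in Combo. All 10 neutrophil markers measured were called higher in Vehicle than in WT, from *S100a8* at a log2 fold change of 7.36 to *Mpo* at 2.09. *Gsr* was highest in Vehicle, with Combo next and the other groups lower. *Sod2* and *Slc7a11* were also highest in Vehicle, with Combo near the GLP-1R agonist. Monocyte and macrophage markers summed to 4316 to 4577 CPM in WT, 3073 to 3331 in Vehicle, 10447 to 10880.4 with the GLP-1R agonist, 15046 to 15272 with anti–IL-17A and 11022 to 11083 in Combo. Erythroid markers summed to 3868 to 4091 CPM in WT, 6713 to 6806 in Vehicle and 5432 to 5583 in Combo. They summed to 1448 to 1544 with the GLP-1R agonist and 1171 to 1190.1 with anti–IL-17A. Stromal and endothelial markers (10 of 10 measured) summed to 15667.5 to 16596 CPM in WT and 6794 to 7153 in Vehicle. They were at 22823 to 23314 with the GLP-1R agonist, 14568 to 14751 with anti–IL-17A and 12854 to 13302 in Combo. Epididymal markers (8 of 10 measured) summed to 3635 to 3774 CPM in WT and 0.40 to 1.68 in Vehicle, and acinar markers (8 of 10) to 967 to 989 in Combo and at most 27.6 elsewhere. Adipocyte markers (9 of 9) summed to 1569.8 to 1590.3 CPM in WT, 4313 to 4589 in Vehicle and 3367 to 3426 in Combo. They were at 3065 to 3157 with the GLP-1R agonist and 4655 to 4770.3 with anti–IL-17A. The part of any of these marker lists in the values of the 10 genes was not tested.

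**Figure D4:**
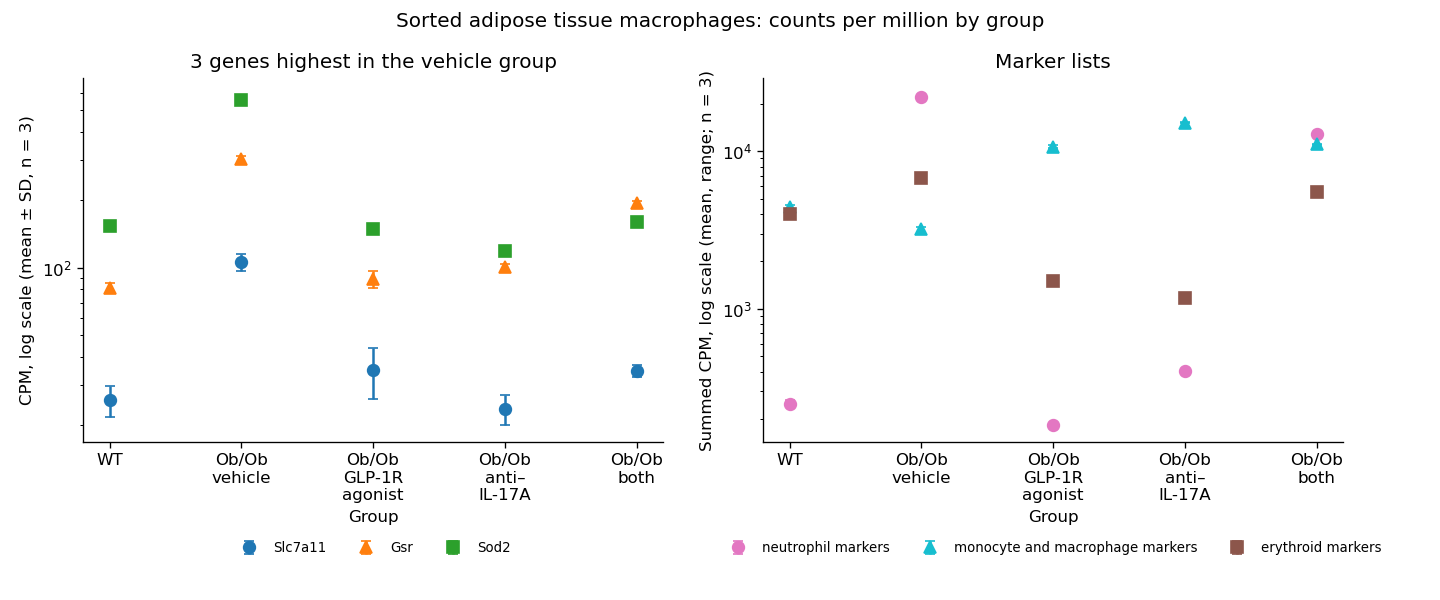
Mean CPM ± SD (n = 3, log scale) of *Slc7a11*, *Gsr* and *Sod2* in ATMs by group (left) and summed CPM of 3 marker lists (mean and range of 3 libraries, log scale, right). On the left, *Gsr* is highest in Vehicle and next in Combo, and *Slc7a11* and *Sod2* are highest in Vehicle. On the right, neutrophil markers and erythroid markers are each highest in Vehicle and next in Combo.

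The difference of an effect between tissues was tested in 1 fit of all 30 libraries over 13076 shared genes. That fit took BM and ATM libraries as independent, and whether they came from the same mice was not tested. For Vehicle vs WT, *Slc7a11* and *Gsr* differed past both thresholds, 2 of 10 genes where 28.7% of all shared genes did. The ATM effect minus the BM effect was 2.47 ± 0.20, adjusted p = 4.58e-11 on the log2 scale for *Slc7a11* and 1.61 ± 0.061, adjusted p = 4.20e-18 for *Gsr*. *Slc7a11* thus fell in BM and rose in ATMs, and *Gsr* rose in both but more in ATMs. For *Hmox1* and *Sod2* the difference was 0.055 ± 0.066, adjusted p = 0.502 and -0.14 ± 0.070, adjusted p = 0.0850, which did not pass the FDR. *Nqo1*, *Txnrd1* and *Prdx1* passed the FDR alone, which made 5 of 10 against 56% of all shared genes, with differences of 0.86, -0.65 and 0.35.

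For Combo vs Vehicle, 4 of 10 genes differed between tissues past both thresholds, where 28.1% of all shared genes did. *Nqo1* (-1.20 ± 0.19, adjusted p = 8.93e-06) rose in BM and did not pass in ATMs, *Slc7a11* (-1.54 ± 0.20, adjusted p = 2.78e-07) fell in ATMs and did not pass in BM, and *Gsr* (-1.29 ± 0.060, adjusted p = 4.32e-16) rose in BM and fell in ATMs. *Prdx1* (1.06 ± 0.051, adjusted p = 8.37e-16) fell in BM and rose in ATMs, and its difference was 0.97 without ATM Vehicle replicate 2. That of *Sod2* was -0.0067 ± 0.070, adjusted p = 0.945, with log2 fold changes of -1.75 in BM and -1.80 in ATMs. In all, 8 of 10 passed the FDR, against 55.1% of all shared genes.

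Transcripts of NRF2 and of its repressors changed as well. *Nfe2l2*, which encodes NRF2 itself, fell in BM of Vehicle vs WT (-0.57 ± 0.032 (SE), adjusted p = 5.61e-19) and rose in Combo vs Vehicle (0.88 ± 0.032, adjusted p = 1.12e-25). In ATMs it rose in Vehicle (0.75 ± 0.046, adjusted p = 9.54e-10) and fell in Combo (-1.12 ± 0.046, adjusted p = 8.54e-12). *Keap1*, the inhibitor, rose in Vehicle in both tissues, by 0.64 in BM and 0.66 in ATMs, and fell in Combo, by 0.36 and 0.55. *Bach1*, the heme-sensing repressor of *Hmox1*, was at -0.088 ± 0.044, adjusted p = 0.0701 in BM of Vehicle vs WT and rose by 0.46 in ATMs, and in Combo rose by 0.55 in BM and fell by 0.45 in ATMs. The difference between tissues was not tested for these 3 genes. Messenger RNA does not show the protein level of NRF2, which is set mainly by degradation.

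Fixed lists of related genes are given by their counts past both thresholds, beside 19.5% of all genes called in BM and 35.4% in ATMs for Vehicle vs WT, and 17.7% and 26.4% for Combo vs Vehicle. The lists share some genes, such as *Slc3a2*, *Fth1*, *Cat* and *Txn1*. Of NRF2 with its partners and repressors, 1 higher and 1 lower of 12 were called in BM of Vehicle vs WT, the small MAF gene *Maff* (2.51) and the repressor *Bach2* (-1.36), log2 fold changes in parentheses. In ATMs the counts were 4 higher and 1 lower of 12, with *Nfe2* (5.18), *Mafg* (1.62) and *Bach2* (-1.62). For Combo vs Vehicle they were 0 higher and 2 lower of 12 in BM, *Maff* (-3.41) and *Bach2* (-1.42), and 0 higher and 7 lower of 12 in ATMs, among them *Nfe2* (-2.00) and *Mafk* (-1.92). *Nfe2* belongs to the NRF2 family and is otherwise known from megakaryocytes and erythroid cells.

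Other genes widely given as NRF2 targets were called in both directions. In BM of Vehicle vs WT 1 higher and 3 lower of 24 were called, the ferritin gene *Fth1* (1.04), the exporter *Abcc3* (-1.77) and the epoxide hydrolase *Ephx1* (-1.07) among them. In ATMs 7 higher and 8 lower of 27 were called, from *Osgin1* (2.46) and *Txn1* (2.24) to the detoxifying enzymes *Gsta2* (-5.57) and *Aox1* (-3.21). In Combo vs Vehicle 4 higher and 2 lower of 24 were called in BM, with *Gstm1* (1.86), *G6pdx* (1.19), *Ephx1* (-1.40) and *Fth1* (-1.24). The ATM counts were 3 higher and 4 lower of 27, with *Ephx1* (1.88), *Cat* (1.27), *Osgin1* (-2.52) and *Gsta4* (-2.24). Median log2 fold changes in Vehicle vs WT were -0.13 in BM and 0.11 in ATMs, beside -0.017 and -0.21 over all genes.

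Among further genes of glutathione, 1 higher and 1 lower of 15 were called in BM of Vehicle vs WT, namely *Slc3a2* (1.15), the partner chain of *Slc7a11* in the cystine importer, and *Chac2* (-1.37), which degrades glutathione. In ATMs 4 higher and 3 lower of 15 were called, with *Glrx* (2.26), *Slc3a2* (1.30), *Gpx3* (-2.45) and *Oplah* (-1.85). Combo vs Vehicle gave 2 higher and 1 lower of 15 in BM, *Ggt1* (2.98), *Gpx3* (1.33) and *Slc3a2* (-1.11), and 0 higher and 2 lower of 15 in ATMs, *Chac1* (-2.44) and *Slc3a2* (-1.32). *Slc3a2* was thus called with *Slc7a11* in ATMs in both comparisons. In BM it was called in both as well, whereas *Slc7a11* was at -0.43 in Vehicle vs WT and -0.019 in Combo vs Vehicle. Of thioredoxins and peroxiredoxins, *Prdx6* (1.06) was the only 1 of 14 called in BM of Vehicle vs WT, and in ATMs 3 higher and 1 lower of 14 were called, with *Txn1* (2.24), *Msrb1* (2.20) and *Txnrd3* (-1.11). In Combo vs Vehicle the counts were 0 higher and 2 lower of 14 in BM, *Sesn3* (-1.43) and *Sesn1* (-1.26), and 1 higher and 4 lower of 14 in ATMs, with *Prdx4* (1.13), *Txn1* (-1.49) and *Msrb1* (-1.15).

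Of the other superoxide and hydrogen peroxide enzymes, the secreted dismutase *Sod3* (1.86) rose and catalase *Cat* (-1.04) fell in BM of Vehicle vs WT, 2 of 4 genes. By edgeR 0 of the 4 were called in ATMs of Vehicle vs WT, with 4 past the FDR alone, and 0 in BM of Combo vs Vehicle, with 2 past the FDR alone, and *Cat* (1.27) rose in ATMs of Combo. Of the partners of *Hmox1* in heme and iron handling, 3 higher and 1 lower of 11 were called in BM of Vehicle vs WT, haptoglobin *Hp* (1.57), *Lrp1* (1.19) and *Fth1* (1.04) against the iron exporter *Slc40a1* (-2.36). In ATMs 4 higher and 2 lower of 12 were called, hemopexin *Hpx* (4.78) and *Hp* (2.57) among the higher, and the receptors *Cd163* (-4.27) and *Lrp1* (-2.22) lower. Combo vs Vehicle gave 2 higher and 1 lower of 11 in BM, with *Slc40a1* (2.06) and *Cd163* (1.18), and 3 higher and 2 lower of 12 in ATMs, with *Cd163* (3.75), *Lrp1* (1.73), *Hpx* (-4.43) and *Hmox2* (-1.09).

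The called genes of the ATF4 amino acid response and those that NF-κB induces lay in 1 direction in Vehicle vs WT. In Combo vs Vehicle they lay in the opposite direction, except for *Phgdh* in ATMs. *Slc7a11* itself did not move with the ATF4 genes in BM, at -0.43 in Vehicle vs WT and -0.019 in Combo vs Vehicle. Of 14 genes of the ATF4 amino acid response, 6 were called higher and 0 lower in BM of Vehicle vs WT, with *Ddit4* (2.72) and *Vldlr* (2.66), and 10 higher and 0 lower in ATMs, with *Trib3* (3.70) and *Ddit4* (2.48). In Combo vs Vehicle 0 were called higher and 4 lower in BM, with *Ddit4* (-2.95) and *Trib3* (-1.92), and 1 higher, *Phgdh* (1.06), and 9 lower in ATMs, with *Trib3* (-3.34). Of 11 genes that NF-κB induces, 5 and 9 were called higher and 0 lower in Vehicle vs WT, with *Traf1* (2.11) and *Nfkbia* (2.07) in BM and *Nfkbia* (2.19) and *Tnfaip3* (1.85) in ATMs. In Combo vs Vehicle 6 and 9 were called lower and 0 higher, with *Traf1* (-3.06) and *Icam1* (-2.40) and *Icam1* (-1.99) and *Nfkbia* (-1.95). By the FDR alone 0 and 1 of the ATF4 genes and 2 and 0 of the NF-κB genes were lower in Vehicle than in WT in BM and ATMs. The median log2 fold changes in Vehicle vs WT in BM and ATMs, in that order, were 0.24 and 0.74 for NRF2 control, 0.12 and 0.040 for glutathione, -0.11 and 0.0037 for thioredoxins and peroxiredoxins, -0.28 and -0.38 for superoxide and catalase, -0.12 and 0.56 for heme and iron, 0.70 and 1.53 for ATF4 genes and 0.96 and 1.52 for NF-κB genes. In Combo vs Vehicle they were -0.16 and -1.19 for NRF2 control, -0.10 and 0.054 for glutathione, -0.13 and -0.026 for thioredoxins and peroxiredoxins, -0.022 and 0.30 for superoxide and catalase, -0.048 and 0.12 for heme and iron, -0.51 and -1.17 for ATF4 genes and -1.51 and -1.23 for NF-κB genes, beside 0.021 over all genes in BM and 0 in ATMs, where the median falls among genes with no count in either group. The lists were not tested as sets, and *Sod2* and *Slc7a11* are in neither the ATF4 nor the NF-κB list. The part of ATF4 or NF-κB in the changes of *Slc7a11* and *Sod2* was not tested.

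The genes whose log2 normalised counts ran most like each called member over the 15 libraries of a tissue are given as a description, since the libraries fall into 5 groups that all genes share. In BM these were *Pnisr* (0.991), *Lgmn* (0.990), *Ctla2a* (0.989) for *Hmox1*, *Suclg2* (0.982), *Sgsh* (0.980), *Adipor1* (0.978) for *Nqo1* and *Stard3* (0.996), *Ifit2* (0.994), *Cdkn1a* (0.992) for *Sod2*, with Pearson's r in parentheses. In ATMs they were *Hspa8* (0.986), *Fnip1* (0.974), *Hsph1* (0.971) for *Hmox1*, where *Hspa8* and *Hsph1* encode heat shock chaperones. For *Slc7a11* in ATMs they were *Fas* (0.986), *Cd274* (0.980), *Casp4* (0.975), and for *Sod2* *Marcksl1* (0.998), *Isg15* (0.995), *Rsad2* (0.994), of which *Isg15* and *Rsad2* are interferon-stimulated genes. For *Gsr* they were *Mcemp1* (0.991), *Lcn2* (0.986), *Sprr2b* (0.985), of which *Lcn2* is abundant in neutrophils. Between the members themselves, the most similar pair in ATMs was *Hmox1* and *Srxn1* (r = 0.973), followed by *Slc7a11* and *Sod2* (r = 0.945), and in BM *Gclm* and *Gsr* had r = 0.906 and *Nqo1* and *Sod2* r = -0.902.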

How the data were processed

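RNA-Seq reads of 30 libraries were aligned by the authors to mm10 (GRCm38) with STAR 2.7.2a and counted on GENCODE genes with featureCounts 2.0.1 without regard to strand, a read on several genes being counted for each. Unnormalized counts per gene were deposited, in 1 table per tissue. Genes with low counts had been left out of them, the smallest total of a gene being 55 (BM) or 54 (ATMs), and filterByExpr removed 0 genes. Libraries were grouped by their labels.

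Tests were run in edgeR 4.0.16 under R 4.3.3 (TMM scaling, 1 robust quasi-likelihood fit of 15 libraries per tissue, 2-sided, Benjamini-Hochberg over all genes). SEs were derived from the F statistic. Normalised read counts are counts scaled to the mean effective library size of the tissue. The thresholds are those of the study. Differences between tissues were tested as interactions over 13076 genes. The alternatives were DESeq2 1.42.0, its size factors, limma 3.58.1 voom with weights per tissue for the interactions, no filter, at least 10 counts in every library, only the groups compared, a replicate block, no fold-change limit and each library left out. The fits were tested on simulated data. Levels per length used exons of GENCODE M21 on GRCm38, from which the gene positions come, and 4.71% of the exon bases of *Gclm* are shared with *Gm17494* and *Gm6061*. Promoter windows came from RefSeq (GRCm38.p6).

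Named genes were the 10 members, *Nfe2l2*, *Keap1* and *Bach1*, of each list up to 2 called genes at either end of the fold changes in Vehicle vs WT and Combo vs Vehicle with a mean of at least 10 counts, markers that touch a member, and the 3 genes most correlated with each member called in Vehicle vs WT. Members and lists were chosen with earlier results of these data known.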

Additional observations from a re-analysis of the deposited data

Results flagged for a closer look

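6 effects of the 10 genes differed between the tissues past both thresholds of the interaction test. Of all shared genes, 28.7% did so for Vehicle vs WT and 28.1% for Combo vs Vehicle, so the count alone does not set the members apart. In Vehicle vs WT the log2 effect in ATMs minus that in BM was 2.47 ± 0.20, adjusted p = 4.58e-11 for *Slc7a11* and 1.61 ± 0.061, adjusted p = 4.20e-18 for *Gsr*. In Combo vs Vehicle it was -1.20 ± 0.19, adjusted p = 8.93e-06 for *Nqo1*, -1.54 ± 0.20, adjusted p = 2.78e-07 for *Slc7a11*, 1.06 ± 0.051, adjusted p = 8.37e-16 for *Prdx1* and -1.29 ± 0.060, adjusted p = 4.32e-16 for *Gsr*. For *Gsr* and *Slc7a11* both comparisons use the same Vehicle libraries, so these results are not independent of each other. Under limma voom with weights per tissue the 6 differences were 2.48, 1.61, -1.20, -1.54, 1.06 and -1.29 in the order given. The neutrophil marker sum in ATMs of Vehicle was 21516 to 22771 CPM against 243 to 264 in WT, and in BM 120290.0 to 122111 against 106389 to 113804, with 7 of the 10 markers lower and 2 higher past the FDR in BM of Vehicle, and its part in these differences was not tested.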

How the results depend on the processing

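In BM, 3 libraries a group gave SEs of 0.021 to 0.15 on the log2 scale for the 10 genes over all comparisons and the departure, and in ATMs of 0.040 to 0.24, so that smaller changes passed in BM. Without a fold-change limit the counts of members rose to 10 for Vehicle vs WT, 10, 7 and 8 for the GLP-1R agonist, anti–IL-17A and Combo vs Vehicle, 10 for Combo vs WT and 9 for the departure from additive effects in BM, and to 7, 8, 7, 7 and 5 for the first 5 of these in ATMs. The interaction counts rose to 5 for Vehicle vs WT and 8 for Combo vs Vehicle. In the same comparisons 68.6% to 76.6% of all genes passed the FDR alone in BM and 41.1% to 58.1% in ATMs. For the interactions 56% and 55.1% of all shared genes did. The departure in ATMs fell to 7 with DESeq2 size factors, with DESeq2 and in a fit of the groups compared alone, each time through *Gclc*, and the interaction count for Combo vs Vehicle to 3 with DESeq2 size factors, through *Prdx1*. The remaining counts of members were as reported under those alternatives. Leaving out 1 library gave 2 to 3 members for BM Vehicle vs WT, 5 to 6 for ATM GLP-1R agonist vs Vehicle, 7 to 8 for the ATM departure and 3 to 4 for the interaction in Combo vs Vehicle. It moved none of the other counts of the comparisons named in this section. In other ATM comparisons it brought *Srxn1* past the limit in anti–IL-17A vs WT (1.02) and between the single agents (1.01 to 1.13). *Gclc* in Combo vs the GLP-1R agonist fell under the limit (-0.97). Within a tissue the replicate numbers showed no pairing of libraries across groups. Deviations of same-numbered samples correlated at -0.068 to 0.14 in BM and -0.041 to 0.032 in ATMs, with 1 and 0 of 30 pairs over 0.1. Pairing of BM with ATM libraries was not tested. With the replicate block the counts of members were 3, 3, 3, 3, 0 and 3 in BM and 4, 5, 4, 3, 1 and 8 in ATMs, with 2 and 4 for the interactions. The block changed 1 call of a member, *Srxn1* in ATMs between the single agents, which came to 1.01.

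Signs were compared for Vehicle vs WT, the treated groups vs Vehicle and Combo vs WT, and changed there in ATM differences that did not pass the FDR. *Srxn1* in anti–IL-17A vs Vehicle came to 0.035 with at least 10 counts in every library, 0.0074 with only the groups compared and -0.14 to 0.13 without 1 library. *Hmox1* in Combo vs WT came to 0.0075, 0.034 and -0.063 to 0.027 in the same way. Without 1 library the others ranged from -0.051 to 0.25 for *Gclc* and -0.017 to 0.16 for *Gclm* in Vehicle vs WT, -0.014 to 0.20 for *Nqo1* and -0.19 to 0.076 for *Gclc* in anti–IL-17A vs Vehicle, -0.0020 to 0.066 for *Gclm* and -0.15 to 0.012 for *Txnrd1* in Combo vs Vehicle, and -0.19 to 0.0088 for *Nqo1* and -0.016 to 0.11 for *Srxn1* in Combo vs WT.

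Asking for at least 10 counts in every library drops genes that are near 0 in 1 group by construction, and lowered the count of all genes called by over 1.5 times in BM for anti–IL-17A vs Vehicle (1428 against 2151), anti–IL-17A vs WT (465 against 844), Combo vs anti–IL-17A (422 against 757) and GLP-1R agonist vs anti–IL-17A (454 against 779). It did so in ATMs for Vehicle vs WT (3934 against 6034), the GLP-1R agonist vs Vehicle (3335 against 5417), anti–IL-17A vs Vehicle (3724 against 6051), Combo vs WT (2064 against 3681), the departure (3887 against 6122), both single agents vs WT (1710 against 2578 and 2008 against 3189), Combo vs the GLP-1R agonist (1592 against 3195) and Combo vs anti–IL-17A (768 against 2429). The filter also lowered the number of genes tested, from 13353 to 11919 in BM and from 17059 to 12064 in ATMs. The percentages of all genes called given above thus shift by less than these counts. The counts of members did not shift with this filter.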
